A study of Mus musculus with 12 samples.

Results

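The 32 genes described here are expressed in the distal nephron and the collecting duct of the kidney, and their probes were followed over arrays of sorted kidney cells and of cultured macrophages. They were found by gene name among the non-control probes of an Agilent mouse array, and all 32 were present among the 34810 gene names, on 38 probes. By textbook position 8 were taken as genes of the thick ascending limb, 8 of the distal convoluted and connecting tubule, 9 of principal cells and 5 of intercalated cells, and 2 (Cdh16 and Fxyd2) are used in several segments.

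The study profiled macrophages from the kidneys of a mouse model of kidney stones, on 12 one-colour arrays in 4 groups of 3. Cells labelled CD11b+/CD11c+, surface proteins of myeloid cells, were taken with autoMACS, a magnetic sorter, from kidneys of WT mice and of homozygous op/op mice, both of strain B6C3Fe a/a-Csf1op/J and both given 80 mg/kg glyoxylate for 6 days. The op allele is a mutation of Csf1, the gene of macrophage colony-stimulating factor, carried in every cell, and it leaves a transcript, so an expression probe does not check the genotype labels. The comparison groups were ex vivo bone marrow derived macrophages of the same strain label, M1 after LPS and GM-CSF and M2 after IL-4 and M-CSF, for which the labels name no glyoxylate and do not say which genotype gave the marrow. No kidneys without glyoxylate, no unsorted kidney and no sorted tubule cells are among these samples, and the labels leave out the age of the mice. Nothing in the labels says that the arrays of a group came from separate animals or cultures, so every p-value rests on a spread between samples that may be only technical.

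In the thick limb of the loop of Henle, the nephron takes up salt without water. There the transporter NKCC2 (Slc12a1) and the potassium channel ROMK (Kcnj1) work together, and the cells secrete uromodulin (Umod). The distal convoluted tubule adds the thiazide-sensitive cotransporter NCC (Slc12a3) and takes up magnesium and calcium. In the collecting duct, principal cells take up sodium through the epithelial channel ENaC (Scnn1a, Scnn1b, Scnn1g) and water through aquaporin 2, and intercalated cells secrete acid or base with a vacuolar proton pump (Atp6v1b1, Atp6v0a4) and anion exchangers (Slc4a1, Slc26a4).

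Values are log2 signals relative to the 75th percentile of each array, so 0 is the signal that 3 in 4 probes stay under, and a probe's level is compared only with the same probe on other arrays. The scanner software called 76.1 to 79.3% of probes well above background on the WT arrays, 63.1 to 68.8% on the op/op arrays, 72.6 to 75.1% on M1 and 64.4 to 65.1% on M2. Arrays of a group correlated at 0.945 to 0.973 for WT, 0.972 to 0.980 for op/op, 0.990 to 0.991 for M1 and 0.985 to 0.990 for M2. The median residual SD of a gene was 0.37 on the kidney arrays and 0.16 on the marrow arrays, and for the 28 members tested it was 0.69 and 0.22, so the spread pooled over all 4 groups understates the error of op/op against WT. The WT replicate 1 array lay on a slide of its own, the other kidney arrays shared a slide with WT in its upper row and op/op in its lower row, and all marrow arrays lay on another slide. Kidney against marrow and slide therefore cannot be told apart, nor can op/op against WT and the row on the slide.

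Most of these genes were detected in the kidney-sorted samples, above the share of all genes in WT and near it in op/op. Of the 32 members, 28 were well above background on all 3 WT arrays and 21 on all 3 op/op arrays, against 17 on all M1 arrays and 10 on all M2 arrays. As shares these are 87.5%, 65.6%, 53.1% and 31.2%, beside 76.4%, 66.8%, 74.7% and 66.6% of all genes in the same groups. Members that no array of a group detected numbered 1 for WT, 3 for op/op, 12 for M1 and 16 for M2, out of 32. Of all genes, 13.5%, 21.7%, 18.0% and 26.0% were detected on no array of the same groups. Array by array the members detected numbered 29, 29 and 30 in WT (replicates 1, 2 and 4), 23, 29 and 22 in op/op (replicates 1, 2 and 4), 18, 19 and 18 in M1 and 13, 11 and 13 in M2 (replicates 2, 3 and 4). The op/op replicate 2 array detected as many members as WT replicates 1 and 2, and the other op/op arrays detected fewer than any WT array.

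**Figure D1:**
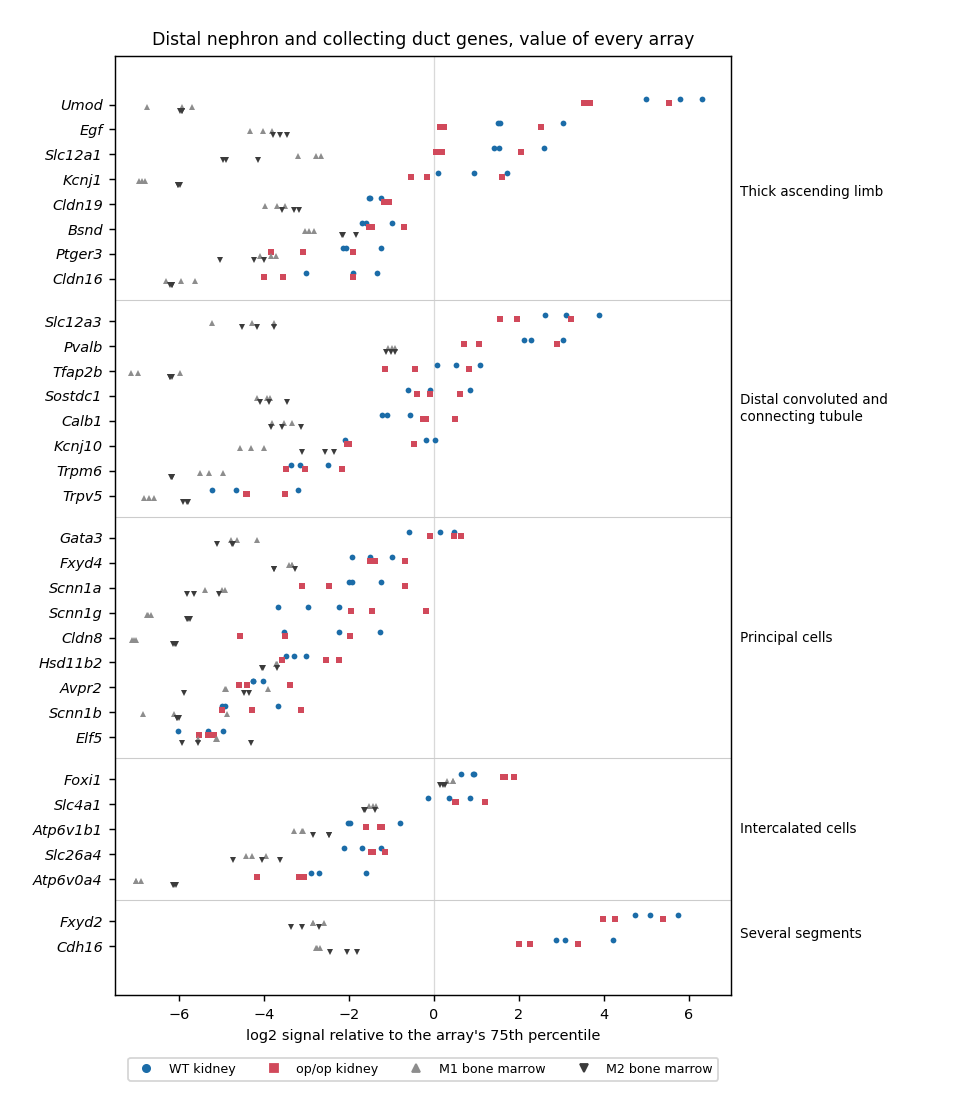
Value of every array for each of the 32 genes, one gene per row, grouped by segment, on a log2 axis in which 0 is the 75th percentile of the array; circles are WT kidney, squares op/op kidney, upward triangles M1 and downward triangles M2 bone marrow macrophages. Umod shows the widest gap, with the kidney arrays between 3.53 and 6.31 and the marrow arrays between -6.75 and -5.69, and Elf5 shows none.

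The bases ahead of the genes give the sequence context of these members. RefSeq's windows on GRCm38.p6 held 23 of the 32 members, in 27 windows, of which the 250 bases before the annotated start were read. Not in that table were Sostdc1, Calb1, Cdh16, Cldn8, Slc4a1, Bsnd, Scnn1a, Hsd11b2 and Fxyd2. Windows of 4 members are shown because their genes stand for the patterns below: Umod and Slc12a1 of the thick limb, whose values went up and down together over the kidney arrays, Scnn1g, which was higher in op/op, and Atp6v1b1 of the intercalated cells. Capitals mark letters that match TGTTTAC, a forkhead site, which the windows of Slc12a1 and Atp6v1b1 hold and those of Umod and Scnn1g do not; Umod (minus strand) is chr7:119479263-119479512, Slc12a1 (plus strand) chr2:125152350-125152599, Scnn1g (plus strand) chr7:121734229-121734478 and Atp6v1b1 (plus strand) chr6:83742767-83743016.
Umod: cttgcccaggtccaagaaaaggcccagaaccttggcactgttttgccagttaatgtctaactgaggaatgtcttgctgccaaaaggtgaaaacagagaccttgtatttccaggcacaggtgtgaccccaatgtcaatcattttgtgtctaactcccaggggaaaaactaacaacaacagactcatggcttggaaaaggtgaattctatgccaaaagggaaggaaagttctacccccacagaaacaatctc
Slc12a1: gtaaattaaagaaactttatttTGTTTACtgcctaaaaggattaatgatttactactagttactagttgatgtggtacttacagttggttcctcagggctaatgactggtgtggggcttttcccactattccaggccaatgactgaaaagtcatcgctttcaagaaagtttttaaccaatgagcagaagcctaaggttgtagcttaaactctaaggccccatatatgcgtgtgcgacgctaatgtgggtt
Scnn1g: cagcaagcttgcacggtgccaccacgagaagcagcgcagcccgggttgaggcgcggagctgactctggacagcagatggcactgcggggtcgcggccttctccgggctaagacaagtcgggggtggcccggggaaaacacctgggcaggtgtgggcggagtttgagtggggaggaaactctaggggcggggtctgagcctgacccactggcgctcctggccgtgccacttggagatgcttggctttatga
Atp6v1b1: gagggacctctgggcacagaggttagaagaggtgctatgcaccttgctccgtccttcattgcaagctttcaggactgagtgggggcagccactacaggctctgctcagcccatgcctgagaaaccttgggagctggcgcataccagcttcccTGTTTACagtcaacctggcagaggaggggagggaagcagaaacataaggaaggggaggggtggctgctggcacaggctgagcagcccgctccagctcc

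On both strands, the forkhead letters were in the windows of 4 members (Atp6v1b1, Avpr2, Egf and Slc12a1), 14.8% of the 27 member windows against 3.17% of all 32851 windows of the same length. The palindrome GCCNNNGGC bound by AP-2 factors, among them the member Tfap2b, was in 8 of the 27 windows, 29.6% against 13.7%, and TCAAGGTCA, a site of estrogen-related receptors, was in 0 of 27 windows and in 0.387% of all. Member windows were richer in G and C than the rest, with a median of 58.0% against 52.4%, and a letter match describes the window, not a bound site.

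In kidney-sorted cells against marrow macrophages, every member that could be tested was higher. All 28 members tested were called higher and 0 lower by limma with Benjamini-Hochberg adjustment over all genes, beside 47.4% of all genes called higher and 34.7% called lower. In 27 of the 28 all 6 kidney arrays exceeded all 6 marrow arrays, which was so for 26.1% of all genes tested. The median difference of the members was 3.43 and that of all genes 0.32. For 9 of the 28 no marrow array detected the gene, so the measured difference rests on signals at background; with these at their lower bound the median was 2.48, or 2.32 with the higher floor explained below. A member that passed the filter only through the kidney groups had to be higher there, and olfactory receptor genes ran higher on the kidney arrays too: of 506 tested, 424 were called higher, with a median of 1.49. The calls of Hsd11b2, Cldn8 and Trpm6 were lost when dim signals were raised to the 10th percentile. Bsnd, Foxi1, Hsd11b2 and Atp6v1b1 differed by less than that median. Fewer cells of a type and less RNA per cell cannot be told apart in such bulk samples.

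The widest gap was that of a thick limb gene. Umod, probed at chr7:126606529-126606588 (mm9, the build of the array headers), read 6.31, 5.79 and 5.003 in WT, 3.53, 5.55 and 3.69 in op/op, -6.75, -5.94 and -5.69 in M1 and -5.92, -5.92 and -5.98 in M2, in replicate order. All 6 kidney arrays detected it, and no marrow array did. Its measured marrow mean of -6.04 lies in background, so the marrow level is only a bound, set for each array by the lowest signal the scanner called well above background. The limma adjusted p of 1.68e-09 belongs to the measured difference of 11.01, and the bound itself was not tested. The kidney groups, with a mean of 4.98, were at least 705-fold higher, or at least 316-fold with the floor at the 10th percentile of such signals. These bounds apply to every gene given below as at least some fold higher, with the value for the 10th-percentile floor in parentheses.

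Slc12a1 and Kcnj1, which act together in salt uptake, were also far apart between the tissues. Slc12a1 averaged 1.85 ± 0.65 in WT and 0.76 ± 1.12 in op/op (SD, n = 3), against -2.87 ± 0.29 in M1 and -4.67 ± 0.45 in M2, a difference of 5.08 ± 0.35 (SE). Kcnj1 averaged 0.92 ± 0.81 in WT and 0.30 ± 1.14 in op/op and was detected on no marrow array, which puts the kidney groups at least 34.1-fold higher (15.3-fold). Egf, the growth factor precursor made mainly by thick limb and distal tubule cells, differed by 5.34 ± 0.40. For Slc12a1, Kcnj1 and Egf every kidney array exceeded every marrow array. Of the paired claudins that let magnesium and calcium pass between thick limb cells, Cldn19 differed by 2.28, and Cldn16, detected on 4 of 6 kidney arrays and on no marrow array, was at least 3.65-fold higher (1.63-fold). Bsnd (barttin), the accessory subunit of the ClC-K chloride channels, differed by 1.16. For the prostaglandin E receptor gene Ptger3 the probe used, brightest over all arrays, read -5.03 to -3.71 in marrow. It overlapped between the tissues and differed by 1.77. The other Ptger3 probe, brighter in kidney and dimmer in marrow, differed by 4.12.

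Among the distal tubule genes Slc12a3 and Tfap2b stood furthest out. Slc12a3 read 3.90, 3.11 and 2.61 in WT and 1.56, 3.22 and 1.95 in op/op, while the marrow arrays ran from -5.23 to -3.76. The measured difference was 7.01 ± 0.34 (SE, limma adjusted p = 1.82e-08), with 2 of 3 M1 and 1 of 3 M2 arrays well above background. Tfap2b, an AP-2 transcription factor of the distal tubule, was detected on all kidney arrays and on no marrow array, at least 24.9-fold higher (11.1-fold). Sostdc1, a secreted BMP and WNT antagonist, differed by 3.94, the calcium-binding proteins Calb1 and Pvalb by 3.07 and 3.02 and the potassium channel Kcnj10 by 2.36. The magnesium channel Trpm6 was detected on 5 of 6 kidney arrays and on no marrow array, at least 2.84-fold higher (1.30-fold). Trpv5, the apical calcium channel of this segment, was well above background on 1 of 6 kidney arrays and was not tested.

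Principal cell genes were less uniformly detected. Gata3, a transcription factor of the collecting duct, read 0.46, -0.58 and 0.15 in WT, -0.10, 0.48 and 0.64 in op/op and -5.10 to -4.17 in marrow. It was well above background on 1 of 3 M1 and 0 of 3 M2 arrays. The measured difference of 4.87 ± 0.20 (SE) thus rests mostly on marrow signals at background. T lymphocytes also use Gata3, and on the same arrays 5 of 8 T cell genes tested were called higher in the kidney groups and 1 lower. Of all genes, 47.4% were called higher and 34.7% lower. The T cell median of 0.66 was below the 1.49 of olfactory receptor genes. The log2 summed signal of the 12 T cell genes, mostly Cd4 and Lck, was 3.95 to 6.32 on kidney and 3.84 to 4.45 on marrow arrays. Their median level overlapped, at -3.67 to -2.55 on kidney and -3.65 to -3.11 on marrow arrays. The part of T cells in the Gata3 level was not tested. Scnn1g, the gamma subunit of ENaC, was detected on all 6 kidney arrays and on no marrow array, at least 5.30-fold higher (2.37-fold). The alpha subunit Scnn1a, on 5 of 6 kidney arrays and no marrow array, was at least 5.88-fold higher (2.68-fold), and the tight junction gene Cldn8, on 4 of 6 and none, at least 3.105-fold (1.39-fold). Fxyd4, a regulator of the sodium pump, differed by 2.16. Hsd11b2, the enzyme that keeps cortisol-like steroids off the mineralocorticoid receptor, differed by 0.78. The beta subunit Scnn1b, well above background on 2 of 6 kidney arrays, the vasopressin receptor Avpr2, on 2 of 3 WT and 0 of 3 op/op arrays, and the transcription factor Elf5, on none of the 12 arrays, were not tested. The genes that define a principal cell ranged from well detected (Gata3, Scnn1g) to not detected (Elf5).

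Intercalated cell genes differed by smaller amounts. Atp6v0a4, a subunit of the proton pump, averaged -2.40 ± 0.70 in WT and -3.47 ± 0.61 in op/op (SD, n = 3), was detected on 4 of 6 kidney arrays and on no marrow array, at least 2.93-fold higher (1.31-fold). Slc26a4 (pendrin), the apical exchanger of base-secreting cells, differed by 2.66. Slc4a1, the basolateral exchanger of acid-secreting cells and also the band 3 protein of red cells, differed by 2.04. On the same arrays 7 of 7 erythroid genes tested were called higher in the kidney groups, beside 47.4% of all genes. Their median was 1.89, beside 1.49 for olfactory receptor genes. Their log2 summed signal was 5.69 to 6.83 on kidney and 3.77 to 4.36 on marrow arrays, and their part in the Slc4a1 level was not tested. Atp6v1b1 differed by 1.40 and Foxi1, the forkhead factor that intercalated cells need, by 0.97. Foxi1 was well above background on every marrow array, between 0.15 and 0.45 there, and between 0.63 and 1.89 on the kidney arrays. The genes of several segments were among the clearest: Fxyd2, the gamma subunit of the sodium pump, differed by 7.78, and Cdh16, the kidney-specific cadherin, by 5.39.

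**Figure D2:**
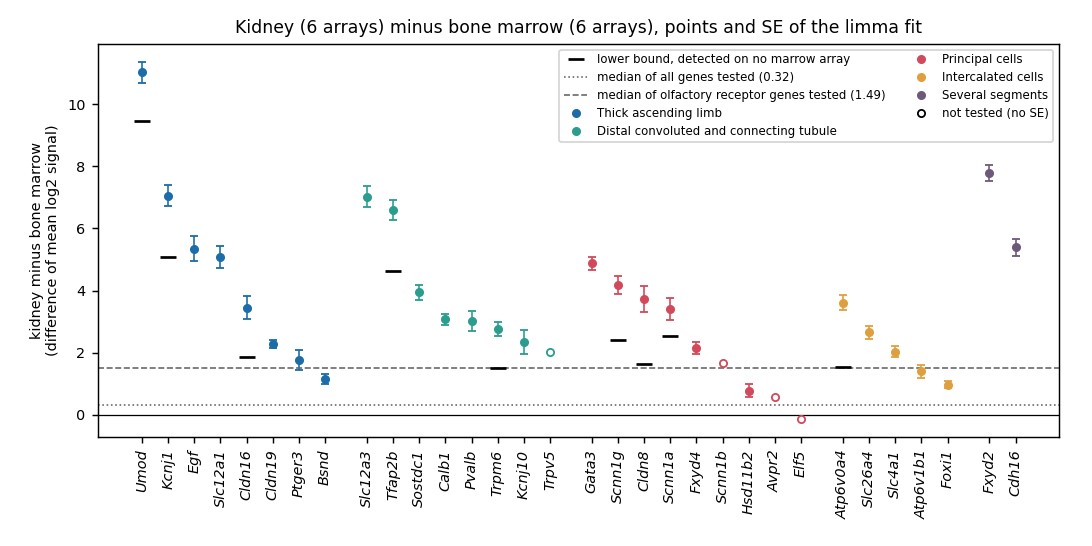
Difference between the mean of the 6 kidney arrays and the mean of the 6 marrow arrays for each gene (vertical axis, log2 signal), with the SE of the limma fit as bars, coloured by segment; open points were not tested, and black dashes are the lower bound for genes that no marrow array detected. Umod lies at 11.01 as measured with its bound at 9.46, and Hsd11b2 at 0.78, beside a median of 0.32 over all genes (dotted) and 1.49 over olfactory receptor genes (dashed).

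Between op/op and WT kidneys the members did not move as a block. Of 28 tested, 3 rose in op/op (Scnn1g, Calb1 and Foxi1) and 3 fell (Umod, Ptger3 and Atp6v0a4), beside 30.9% of all genes called higher and 28.5% called lower. The groups did not overlap, with op/op higher, for 4 members, Scnn1g, Calb1, Foxi1 and Cldn19 (32.6% of all genes), and with op/op lower for 1, Atp6v0a4 (26.2% of all genes). The median difference was -0.49 over the members and 0.16 over all genes, and by segment it was -1.07 in the thick limb, -0.76 in the distal tubule, 0.31 in principal cells and 0.33 in intercalated cells. These medians moved with single arrays and settings: over the members, -1.07 without op/op replicate 2, -0.02 without op/op replicate 1, -0.12 without WT replicate 1 and -0.06 with normexp background correction. In the thick limb the median was -1.67 without op/op replicate 2, -0.63 without WT replicate 1, -0.65 without op/op replicate 1 and -0.39 with normexp, and it was 0.20 over the 3 thick limb genes detected on all 12 arrays. In principal cells the median was 0.04 without WT replicate 2. With the 2 kidney groups fitted alone, the 3 genes that rose were still called and none of the 3 that fell was. These shares of called members are below the background of all genes in both directions.

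Scnn1g showed the largest rise among the members. It read -2.24, -2.96 and -3.67 in WT and -1.45, -0.19 and -1.96 in op/op, in replicate order. Every op/op array was above every WT array, and the op/op replicate 2 array was the highest. The difference was 1.75 ± 0.41 (SE, adjusted p = 0.00528 by limma on 12 arrays, 0.0299 with the kidney groups alone), and within the shared slide, without WT replicate 1, it was 2.11. Without op/op replicate 2 it was 1.25 (adjusted p = 0.0119). Of its partner subunits, Scnn1a differed by -0.36 ± 0.50 (adjusted p = 0.539), and Scnn1b was too dim to test; the difference between the subunits was not tested.

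Calb1, the cytosolic calcium carrier of the distal and connecting tubule, read -0.56, -1.23 and -1.09 in WT and -0.18, 0.49 and -0.26 in op/op. The groups did not overlap. It was higher by 0.98 ± 0.27 (SE, adjusted p = 0.0102 by limma, 0.0374 with the kidney groups alone) and by 1.18 within the shared slide. Its other probe differed by 0.99 but was dim, well above background on 2 of 3 WT and 1 of 3 op/op arrays. Foxi1 read 0.63, 0.93 and 0.94 in WT and 1.89, 1.67 and 1.62 in op/op. Its op/op arrays lay close together, and it was higher by 0.89 ± 0.15 (SE, adjusted p = 0.0013 by limma, 0.0276 with the kidney groups alone) and by 0.79 within the shared slide. Olfactory receptor genes ran higher in op/op as well, with 243 of 479 tested called higher, 3 lower and a median of 0.80. The rises of Calb1 and Foxi1 are near that median and that of Scnn1g is above it; the part of this shift in them was not tested.

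Umod fell in op/op. From the values given above, the op/op replicate 1 and 4 arrays were below every WT array, and the op/op replicate 2 array lay inside the WT range. The difference was -1.45 ± 0.50 (SE, adjusted p = 0.0272 by limma), with adjusted p = 0.0582 in the kidney groups alone and -1.14 (adjusted p = 0.104) within the shared slide. Without op/op replicate 2 it was -2.09 (adjusted p = 0.00241). Ptger3 read -1.24, -2.06 and -2.15 in WT and -3.83, -1.91 and -3.08 in op/op, with the same array inside the WT range. It was lower by -1.13 ± 0.44 (SE, adjusted p = 0.044 by limma, 0.0784 with the kidney groups alone). It was not called within the shared slide (-0.84, adjusted p = 0.16) or with normexp background correction (-0.27, adjusted p = 0.222). With the probe used, only 1 of the 3 op/op arrays detected Ptger3. Its other probe was brighter in kidney, with a mean of -1.72 over the kidney arrays against -2.38. That probe gave a signal over background for 2 op/op arrays and differed by -0.89. Atp6v0a4 read -1.59, -2.89 and -2.72 in WT and -3.19, -3.05 and -4.17 in op/op, all op/op arrays below all WT arrays by a margin that was small for replicate 2. The difference was -1.07 ± 0.34 (SE, adjusted p = 0.0199 by limma, 0.0657 with the kidney groups alone), and within the shared slide -0.67 (adjusted p = 0.0694). With normexp background correction it was -0.05 (adjusted p = 0.837), so the call was lost there.

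None of the remaining thick limb and distal tubule genes was called with all arrays in the fit. Slc12a1 read 2.60, 1.53 and 1.43 in WT and 0.04, 2.04 and 0.19 in op/op, a difference of -1.10 ± 0.49 (SE, adjusted p = 0.0725). Slc12a3 differed by -0.96 ± 0.48 (adjusted p = 0.102), and Egf, at 3.03, 1.55 and 1.51 in WT and 0.15, 2.51 and 0.24 in op/op, by -1.06 ± 0.57 (adjusted p = 0.122). In each of these genes the op/op replicate 2 array lay within the WT range and the other op/op arrays below it. Cldn16 differed by -1.07, Pvalb by -0.93, Tfap2b by -0.82, Kcnj10 by -0.76 and Kcnj1 by -0.62, and the genes of several segments, Cdh16 and Fxyd2, by -0.84 and -0.65. The probes of Pvalb disagreed, the dimmer one differing by 0.24. Bsnd (0.20), Cldn19 (0.32), Trpm6 (0.10) and Sostdc1 (-0.01) were near the median of all genes or within their error of it.

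The other collecting duct genes were not called with all arrays in the fit. Gata3 differed by 0.33 ± 0.29 (SE), Fxyd4 by 0.28 ± 0.28, Hsd11b2 by 0.48 ± 0.29, Slc26a4 by 0.33 ± 0.29, Slc4a1 by 0.38 ± 0.26 and Atp6v1b1 by 0.23 ± 0.29. These errors leave room for differences of similar size to those called, so equality is not shown. Beside Gata3, 4 of 8 T cell genes tested rose in op/op and 1 fell (Il7r), where 30.9% of all genes were called higher and 28.5% lower. Cd3e, the T cell receptor subunit, was higher by 1.40. Cd4 and Lck made up most of the summed signal of the 12 T cell genes. Its log2 ran from 3.95 to 5.46 on the WT arrays and from 5.86 to 6.32 on the op/op arrays. The median level of these genes overlapped, at -3.20 to -2.69 in WT and -3.67 to -2.55 in op/op. Beside Slc4a1, 2 of 6 erythroid genes tested rose (Ermap by 1.06 and Ank1 by 1.01). Another 2 fell (Alas2 by -1.57 and Hbb-b2 by -1.23), where 30.9% of all genes were called higher and 28.5% lower. The log2 summed signal of the erythroid list ran from 5.69 to 6.53 in WT and from 6.57 to 6.83 in op/op. The globin genes went the other way, with Hba-a1 averaging 4.10 in WT and 3.76 in op/op, and Hbb-b1 0.92 and 0.56. The median level of the erythroid list overlapped, at -3.06 to -2.16 in WT and -3.44 to -2.63 in op/op. The part of these cell types in the Gata3 and Slc4a1 levels was not tested. Cldn8 differed by -1.01 ± 0.60. Without WT replicate 1, which equals the value with slide as a term, Slc4a1 (0.63) and Atp6v1b1 (0.64) were called higher as well, and no member was called lower.

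**Figure D3:**
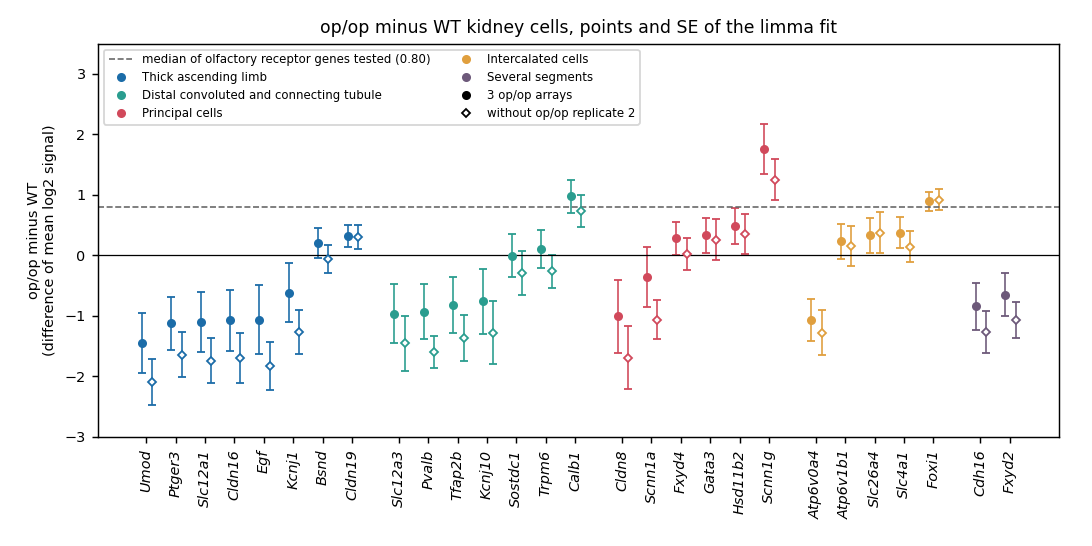
Difference between the op/op and WT means for each gene tested (vertical axis, log2 signal) with the SE of the limma fit, coloured by segment; filled points use all 3 op/op arrays and open diamonds leave out op/op replicate 2. Umod moves from -1.45 to -2.09 and Pvalb from -0.93 to -1.60 when that array is left out, while Foxi1 stays at 0.89 and 0.92; the dashed line is the median of olfactory receptor genes, 0.80.

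The number of members called rested on single arrays. The op/op replicate 2 array was the highest of the op/op arrays for 26 of 32 members (81.2%), against 28.1% of all genes tested, and for 7 of 8 thick limb and 8 of 8 distal tubule genes. It was at or above the lowest WT array for 31 of 32 members, where op/op replicate 1 was so for 18 and op/op replicate 4 for 15. In the thick limb those counts were 8, 2 and 2 of 8, and in intercalated cells 4, 4 and 4 of 5. Without op/op replicate 2, 17 of 28 members tested were called, 3 higher and 14 lower. Of 27141 genes tested there, 7903 were called higher and 7722 lower. The members called lower were then Umod, Slc12a1, Kcnj1, Egf, Cldn16 and Ptger3 of the thick limb and Slc12a3, Pvalb and Tfap2b of the distal tubule. The others were Scnn1a, Cldn8 and Atp6v0a4 of the collecting duct, and Cdh16 and Fxyd2. Scnn1g, Calb1 and Foxi1 were the members called higher there, as with all arrays.

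The WT replicate 1 array leaned the same way within its group. It was the highest WT array for 25 of 32 members (78.1%), against 39.9% of all genes tested. Its median deviation from each gene's mean over the 6 kidney arrays was 1.21 in the thick limb, beside 0.27 and -0.12 for WT replicates 2 and 4 and -1.31, 0.66 and -0.84 for op/op replicates 1, 2 and 4. Leaving out both WT replicate 1 and op/op replicate 2, an alternative chosen after seeing the data, gave 17 of 29 members called, 4 higher and 13 lower. Of 27948 genes tested there, 7548 were called higher and 7105 lower. Without WT replicate 4 there were 10 members called, 3 higher and 7 lower (9144 higher and 8361 lower of 27341 genes). Without WT replicate 1 there were 5, all higher (7439 higher and 6689 lower of 27900 genes).

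Proximal tubule genes, RNAs of another part of the nephron, were lower in op/op on the same arrays. Of 19 tested, 17 fell in op/op, beside 28.5% of all genes called lower. Differences ran from -2.80 to -0.59 with a median of -1.83, and the log2 summed signal was 7.17 to 8.19 on the WT and 4.91 to 6.34 on the op/op arrays. Those with the smallest p were Slc27a2 (-2.80), Slc13a3 (-2.29), the glucose transporter Slc5a2 (-2.14) and Gatm (-1.83). Macrophages also carried RNA of some of them, with Slc13a3 at 2.75 to 3.28 in M1 (2.65 to 3.47 in WT kidney) and Gatm at 0.65 to 0.87 in M2 (0.16 to 0.67 in WT kidney). The op/op replicate 2 array was below every WT array for 18 of 20 of these genes, as op/op replicate 1 was for 19 and replicate 4 for 20. In the thick limb the op/op replicate 2 array was below every WT array for 0 of 8. Of 16 macrophage identity genes, all well above background on every kidney array, 12 were called lower and 0 higher, beside 28.5% and 30.9% of all genes. Cx3cr1 was lower by -2.61 and Aif1 by -1.52. Itgam averaged 7.72 in WT and 8.03 in op/op, and Csf1r 4.90 and 4.98. The log2 summed signal of the 16 genes, to which Itgam gave the largest part, ran from 8.28 to 8.86 in WT and from 8.22 to 8.54 in op/op. Whether fewer proximal tubule or macrophage RNAs in the op/op samples had a part in the differences of distal genes was not tested.

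**Figure D4:**
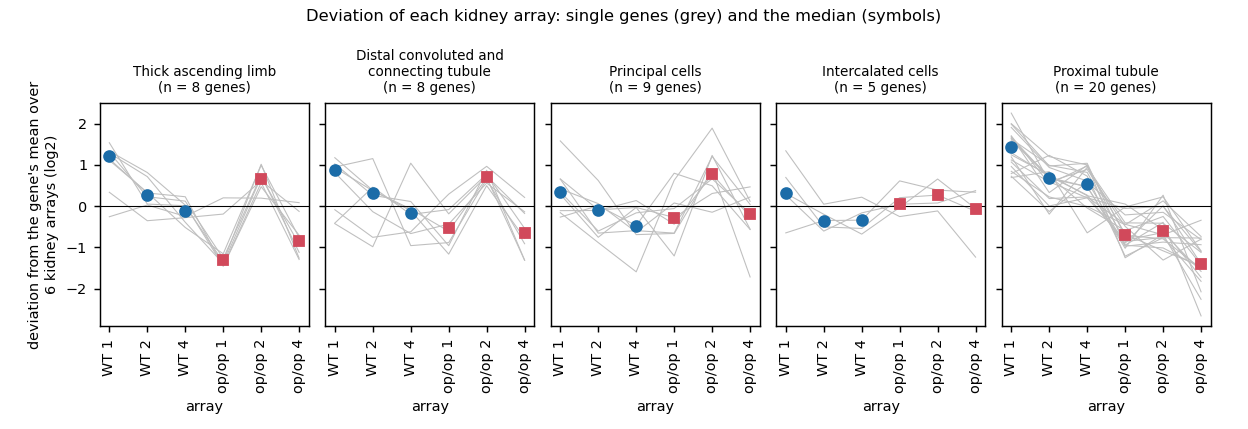
Deviation of each kidney array from a gene's mean over the 6 kidney arrays (vertical axis, log2), one panel per segment and one for 20 proximal tubule genes; grey lines trace single genes across the arrays, which have no order within a group, and symbols are the median (circles WT, squares op/op). In the thick limb op/op replicate 2 lies at 0.66 and op/op replicates 1 and 4 at -1.31 and -0.84, and in the proximal tubule panel all op/op medians are below all WT medians.

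A wider list of 32 other transport genes of the distal nephron and collecting duct was called less often than all genes in op/op against WT. Of 30 tested, 6 rose and 2 fell, both below the shares of all genes (30.9% higher and 28.5% lower). The median was 0.24, beside 0.16 over all genes and 0.80 over olfactory receptor genes. S100g, the small calcium-binding protein calbindin-D9k that works in the same cells as Calb1, read 2.59, 1.79 and 0.59 in WT and 3.80, 5.14 and 3.83 in op/op. All op/op arrays exceeded all WT arrays, a difference of 2.60 ± 0.58 (SE, adjusted p = 0.00423). The collecting duct water channel Aqp2 read 0.70, 0.72 and 0.34 in WT and 1.39, 2.08 and 1.45 in op/op, higher by 1.05 ± 0.21 (adjusted p = 0.00247). The basolateral water channels Aqp3 and Aqp4 were higher by 1.24 and 1.21, Cldn14, a claudin that limits calcium passage in the thick limb, by 0.87, and Klhl3, an adaptor that marks WNK kinases for degradation, by 0.52. Lower were Kcnj16, the partner subunit of Kcnj10, by -1.51 and the kinase Wnk1 by -0.81. Aqp2 was also detected in marrow macrophages, at -0.47 to 0.57.

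In marrow macrophages fewer members were detected, and 2 of 17 tested differed between the polarizations. Slc12a1 was higher in M1 and Bsnd lower, 1 gene each way, beside 8.85% of all genes called higher and 8.92% called lower. Slc12a1 read -2.65, -2.77 and -3.20 in M1 and -4.90, -4.96 and -4.15 in M2, where no array had it well above background. The groups did not overlap, and M1 was at least 2.30-fold higher (1.37-fold with the 10th-percentile floor; measured difference 1.80, adjusted p = 0.0251 by limma). The gene was tested only because M1, its higher group, detected it. Bsnd read -2.82, -3.03 and -2.94 in M1 and -2.13, -2.16 and -1.83 in M2, a difference of -0.89 ± 0.25 (SE, adjusted p = 0.027). Both calls were lost with normexp background correction and with quantile normalization, and 0 or 1 member was called when single marrow arrays were left out. The median over the 17 members was -0.04, or -0.09 with 2 members at their bound under the 10th-percentile floor, and 15 members, Umod, Kcnj1, Slc12a3 and Scnn1g among them, were too dim in both groups to test.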

How the data were processed

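Per the labels, RNA was extracted with a micro-scale kit, amplified by a whole-transcriptome kit and labelled with Cy3. Per the file headers, the deposited scanner intensity values are background-subtracted signals from Agilent Feature Extraction 10.7.3.1, with probe positions on mm9. The authors' deposited value table holds log2 values that correlated at r = 1 with log2 of those intensities on every array. Here, log2 of each intensity was scaled to the array's 75th percentile, 30 flagged probes were left out of 55681, and spots were averaged. The probe brightest over all arrays stood for a gene; 6 members have 2 probes. limma 3.58.1 (R 4.3.3) fitted all 12 arrays in 4 groups. A gene was tested if at least 1 of the compared groups had it well above background on all its arrays, and called at Benjamini-Hochberg adjusted p under 0.05. No member probe was saturated. All 32 members were eligible to be named, and from each other list up to 4 genes with the smallest p in op/op against WT, plus Aqp2. The genes Il7r, Cldn14, Klhl3, Kcnj16, Wnk1, Hba-a1, Hbb-b1, Itgam and Csf1r were named after their values were seen. The members and lists were chosen with earlier results of these data known. Same-numbered arrays did not deviate together (r from -0.18 to 0.08 for WT and op/op, -0.06 to 0.18 for M1 and M2), so numbers were not taken as pairs. RefSeq accessions named the same gene for 37 of the 38 member probes, and the other accession had no entry to compare. Motifs were searched with Python 3.11.15. The scripts were tested on simulated data, where the 12-array fit of op/op against WT called many unchanged genes and the fit of the 2 kidney groups alone did not but missed more changed genes, so both are given for the members called there. Alternatives were other background corrections, scalings, filters and floors, probe rules, the slide, a replicate block, the fit's samples and leaving out arrays. The number of arrays limits the precision.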

Additional observations from a re-analysis of the deposited data

How the results depend on the processing

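No value of a member changed direction while called under any alternative run. Scnn1g and Calb1 stayed called in op/op against WT in all 20 alternatives that tested them and Foxi1 in all 21, but Umod in 14 of 20, Ptger3 in 9 of 20 and Atp6v0a4 in 15 of 20. With the compared groups fitted alone, 10151 genes and 3 members were called in op/op against WT (16088 and 6 otherwise), and 9696 genes and 5 members in M1 against M2 (4653 and 2 otherwise). Members called in op/op against WT numbered 11 of 28 with normexp (16599 of 27071 genes) and 17 of 29 without WT replicate 1 and op/op replicate 2 (14653 of 27948 genes). Where only genes detected on all 12 arrays were tested, 1 member was called (13942 of 20503 genes). That filter leaves 10 members and 10 calls in kidney against marrow (17284 of 20503 genes). In M1 against M2, limma called 0 members with normexp (2 at unadjusted p under 0.05), 0 with quantile normalization (3 at unadjusted p), 1 with dim signals raised to a floor, and 6986 probes where each probe was tested. With the replicate number as a block, 14443 genes and 5 members were called in op/op against WT, 3619 and 1 (Kcnj10) in M1 against M2, and 21902 and 28 in kidney against marrow. Leaving out each array in turn gave 11751 to 17505 genes and 4 to 17 members in op/op against WT, 3300 to 3475 genes and 0 to 1 members in M1 against M2, and 22523 to 24309 genes and 28 to 28 members in kidney against marrow. Kidney-against-marrow calls were lost for Hsd11b2 with quantile normalization (0.14), a floor (0.37) and slide as a random block (0.78, adjusted p = 0.113), and for Cldn8 (0.75) and Trpm6 (0.41) with a floor. Quantile normalization moved the median of all genes from 0.32 to 0.07 in that comparison. The causes were not tested. Signal over background limits Trpv5, Scnn1b, Avpr2 and Elf5.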

Other observations

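Genes that mark tubule epithelium without being tied to a distal segment were followed as well. Of 10 general epithelial genes, all 10 were tested between kidney and marrow, and 8 were called higher in the kidney groups and 1 lower. Of all genes, 47.4% were called higher and 34.7% lower there. The epithelial median of 1.36 was below the 1.49 of olfactory receptor genes. Between op/op and WT, 3 of 9 tested rose, beside 30.9% of all genes called higher and a median of 0.80 over olfactory receptor genes: the mucin Muc1 by 1.19, the claudin Cldn7 by 0.69 and the protease inhibitor Spint2 by 0.56, and the keratin Krt8 differed by -1.15 (limma adjusted p = 0.0661). Of 12 endothelial genes, from another cell type of the kidney, 1 was called higher in op/op (Kdr, 0.71) and 1 lower (Cldn5, -0.90). These counts stand beside 30.9% and 28.5% of all genes, and the endothelial median was 0.22. The op/op arrays differed: replicates 1, 2 and 4 were above every WT array for 2, 4 and 9 of 12. They were below every WT array for 4, 1 and 2, so equality is not shown.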
